A study of Mus musculus with 2 samples.

Results

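The collagen genes are the protein-coding RefSeq genes named Col, a number, the letter a and a number. Of 21774 protein-coding genes, 44 carried such a name, and they were split by protein class into 11 fibrillar members, the 6 Col4 members of basement membranes and 27 others. Their accessible chromatin was read from single-nucleus ATAC-seq, in which a transposase cuts and tags open DNA in barcoded nuclei. Nuclei were taken from the wild-type mouse striatum at E14.5, in mid-gestation, from embryos of C57BL/6J and CD1 background, and gave 2 libraries in 1 group. Both libraries share 1 deposited list of 87174 peaks, regions called open, with positions in mm10 and no count, score or library. Read depth and replicate error are therefore unknown, no test between conditions exists, and every comparison below sets loci of 1 peak list side by side. A peak called over all nuclei does not show which cells carried it, and a weak signal in many cells cannot be told apart from a strong one in few.

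Collagens are secreted or membrane-bound proteins whose chains wind into triple helices. Fibrillar collagens build the fibrils of connective tissue, type IV collagen forms the sheet-like network of basement membranes around vessels and under the pia, and the remaining types decorate fibrils, form beaded filaments or span membranes. In embryonic brain the meninges and vessel walls are known as the main collagen makers, while a few types, such as the transmembrane type XXV, are made by neurons.

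The DNA just before 11 annotated starts is printed here, chosen after the peaks were seen, to set starts with a peak beside starts without one. A start is called open where a peak of the list overlaps any of the 300 bases from 250 before to 50 after it. It is called closed where none does, which does not show that it was closed in every cell. Each holds 150 bases, 5′ to 3′, from the RefSeq promoter table of build GRCm38.p6, which names the same assembly as mm10. Each ends just before the gene span, which begins at or up to 61 bases upstream of the annotated start. The exception is the second start of Col9a1, which lies inside the gene, and there the bases end at that start. Capitals mark every CG dinucleotide, the site of DNA methylation, which clusters in CpG islands at many promoters. The first 6 starts lay under a peak, the next 4 did not, and the last did. The printed bases can lie outside the peak at their start, as all those of Col4a6 do.
Col5a1 (chr2:27886231-27886380, + strand): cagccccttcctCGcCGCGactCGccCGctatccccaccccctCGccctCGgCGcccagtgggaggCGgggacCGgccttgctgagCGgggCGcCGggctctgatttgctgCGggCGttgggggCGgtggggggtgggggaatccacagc
Col8a2 (chr4:126286644-126286793, + strand): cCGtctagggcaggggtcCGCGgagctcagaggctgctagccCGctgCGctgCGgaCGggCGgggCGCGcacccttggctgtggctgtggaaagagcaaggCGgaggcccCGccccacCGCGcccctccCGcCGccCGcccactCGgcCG
Col1a2 (chr6:4505468-4505617, + strand): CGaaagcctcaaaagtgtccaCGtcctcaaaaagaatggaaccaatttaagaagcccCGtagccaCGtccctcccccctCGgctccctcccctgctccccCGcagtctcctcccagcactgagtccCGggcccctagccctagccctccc
Col11a1 (chr3:114030329-114030478, + strand): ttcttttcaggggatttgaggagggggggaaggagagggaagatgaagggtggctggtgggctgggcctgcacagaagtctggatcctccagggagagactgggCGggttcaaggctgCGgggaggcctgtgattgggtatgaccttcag
Col4a5 (chrX:141475220-141475369, + strand): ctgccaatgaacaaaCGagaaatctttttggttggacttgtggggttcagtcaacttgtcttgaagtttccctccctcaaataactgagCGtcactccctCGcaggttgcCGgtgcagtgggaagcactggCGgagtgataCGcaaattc
Col4a6 (chrX:141474096-141474245, - strand): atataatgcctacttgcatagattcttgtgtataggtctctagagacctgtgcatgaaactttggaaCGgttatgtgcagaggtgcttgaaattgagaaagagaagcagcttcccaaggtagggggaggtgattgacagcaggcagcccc
Col10a1 (chr10:34389831-34389980, + strand): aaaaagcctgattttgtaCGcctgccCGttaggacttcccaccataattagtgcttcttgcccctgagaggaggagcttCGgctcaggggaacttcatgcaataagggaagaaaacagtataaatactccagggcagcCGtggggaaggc
Col6a1 (chr10:76726045-76726194, - strand): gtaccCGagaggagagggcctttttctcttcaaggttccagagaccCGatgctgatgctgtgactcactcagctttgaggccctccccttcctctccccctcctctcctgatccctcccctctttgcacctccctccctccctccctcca
Col3a1 (chr1:45311388-45311537, + strand): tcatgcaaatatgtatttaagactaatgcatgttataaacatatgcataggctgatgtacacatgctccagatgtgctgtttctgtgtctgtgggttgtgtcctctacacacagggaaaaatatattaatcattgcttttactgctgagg
Col9a1 first start (chr1:24177439-24177588, + strand): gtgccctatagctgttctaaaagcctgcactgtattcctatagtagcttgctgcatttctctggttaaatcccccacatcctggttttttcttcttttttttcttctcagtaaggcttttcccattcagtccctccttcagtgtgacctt
Col9a1 second start (chr1:24195053-24195202, + strand): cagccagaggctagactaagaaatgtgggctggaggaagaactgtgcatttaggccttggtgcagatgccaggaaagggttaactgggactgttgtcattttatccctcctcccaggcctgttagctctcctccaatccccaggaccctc

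In the 300 bases from 250 before to 50 after the start, Col5a1 had 34 CG dinucleotides and lay under a peak of 4142 bp, and Col8a2 had 32 and a peak of 2310 bp. Col1a2, a type I chain, had 13 with a peak of 1797 bp, Col11a1 had 9 with a peak of 2930 bp, Col4a5 had 11 with 823 bp and Col4a6 had 3 with 450 bp. Without a peak were Col10a1 with 6 CG dinucleotides, Col6a1 with 3, and Col3a1 and the first start of Col9a1 with 0.

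Across the family, an open start went with CG content. The table held 38 starts for 35 collagen genes, and the other 9 members (Col5a2, Col4a3, Col9a3, Col26a1, Col12a1, Col1a1, Col14a1, Col22a1 and Col2a1) are named only. A peak overlapped the 300 bases at 27 of the 38 starts, against 64.4% of 21263 protein-coding starts. The closed collagen start richest in CG had 10, so that by this choice of limit all 20 collagen starts above 10 had a peak. Over all protein-coding genes 11268 of 11637 starts above that limit had one. Starts with a peak had a median of 16 CG dinucleotides and ranged between 1 and 37, whereas the 11 without one had a median of 3 and ranged between 0 and 10. Over all protein-coding starts the median was 21 with a peak and 3 without.

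Collagen starts were then set beside all protein-coding starts of the same CG number. A peak was present at 5 of 5 collagen starts with 15 to 19 CG dinucleotides, against 96.5% of all protein-coding starts in that bin. With 10 to 14 it was present at 7 of 8, against 87.5%, and with 5 to 9 at 4 of 8, against 47.1%. In the poorest bin, 0 to 4, it was present at 2 of 8, against 9.84%. Those 2 starts were Col4a6, a basement membrane chain, and the second start of Col9a1. The single start without a peak in the 10 to 14 bin belonged to Col6a5, a type VI chain. With 4 to 8 collagen starts per bin, these shares are coarse, and they were not tested.

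**Figure D1:**
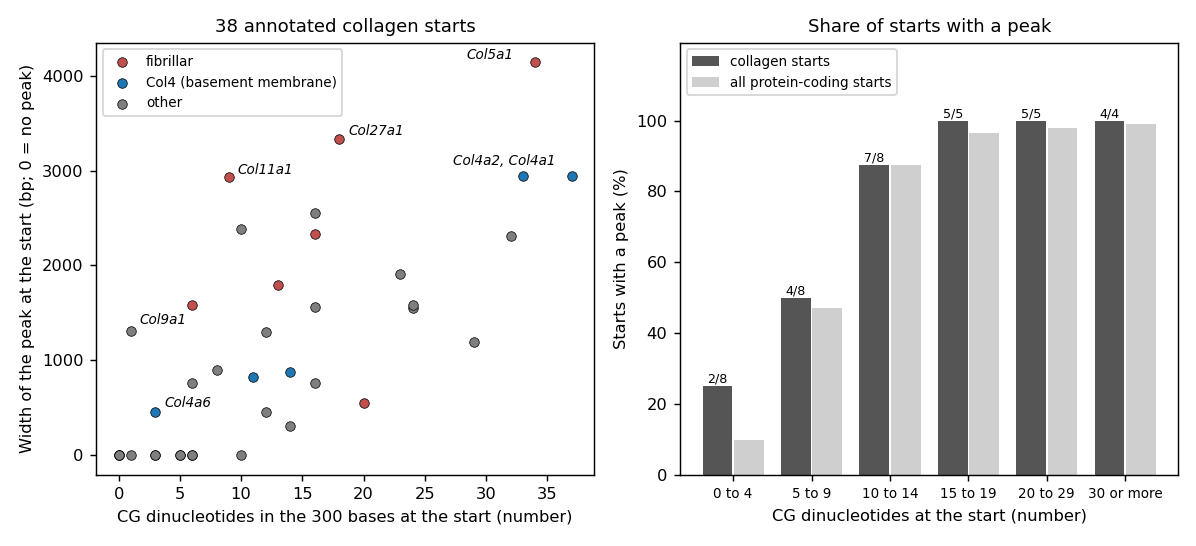
Left, the number of CG dinucleotides in the 300 bases at each of 38 annotated collagen starts and the width in bp of the peak over it, with 0 for no peak, coloured by class. Right, the share of starts with a peak per bin of CG number for collagen starts and for all protein-coding starts. Every collagen start above 10 CG dinucleotides has a peak, and Col5a1 has the widest at 4142 bp.

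Col9a1 and Col18a1 showed an open start at 1 of 2 annotated positions each. In Col9a1, a type IX chain that attaches to fibrils, the first start was closed. Its second start, at 24195203 on chromosome 1 and inside the gene, lay under 1310 bp of open chromatin that began at 24195161 and ended at 24196471. At Col18a1, whose chain is the source of endostatin, the upstream start at 77166530 on chromosome 10 lay within a 2555 bp peak (77164716 to 77167271). No peak overlapped its downstream start at 77113705.

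Short motifs near the start were also counted. Both strands of the 300 bases were searched for 5 short motifs, with overlapping matches counted. GGGCGG, the letters of the GC box, was found at 23 of 38 collagen starts, against 46.2% of all protein-coding starts, and it contains a CG itself. CCAAT, the letters of the CCAAT box, was found at 13 (38.2% of all), TATAAA at 5 (12.6%), TGACAG, read by MEIS and other TALE factors, at 7 (18.7%) and TAATTA, read by many homeodomain factors, at 2 (4.53%). Col11a2 and Col10a1 held the TAATTA letters. A match of letters is no evidence of binding.

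Peaks at either end of a gene, within 1000 bp of the end of its annotated span, were present at 33 of 44 collagen genes (75.0%, exact 95% binomial interval 59.7 to 86.8), against 67.3% of all protein-coding genes. This interval and those drawn in a figure count genes only. Among 2178 protein-coding genes in the longest of 10 equal classes of span, 84.8% had such a peak. That class holds 23 collagen genes, among them all 6 Col4 genes, and of these 23 only Col22a1 and Col28a1 had no such peak. By protein class, such a peak was present at 10 of 11 fibrillar genes, 6 of 6 Col4 genes and 17 of 27 others. The 11 members without one were Col3a1 among the fibrillar genes and Col6a1, Col6a3, Col6a4, Col6a5, Col9a1, Col10a1, Col17a1, Col20a1, Col22a1 and Col28a1 among the others. Of the 6 type VI genes, which make beaded filaments, 4 thus lacked one within 1000 bp. Peaks lay at both ends of 6 members, against 14.8% of all protein-coding genes, where 1 peak can meet both ends of a short gene. These members were Col1a1, Col1a2, Col6a6, Col12a1, Col13a1 and Col23a1.

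The locus of a gene is taken as its span with 50 kb on each side. No collagen locus was empty, against 14.1% of all protein-coding loci, and collagen loci held a median of 11 peaks, against 6. Distal peaks, those at no end of any annotated gene, had a median of 7.5 per collagen locus, against 3, and 42 of 44 loci had at least 1, against 79.6%. Collagen genes are long, with a median span of 114410 bp, against 17219 bp. The locus median over all protein-coding genes was 12 peaks in the longest of 10 equal classes of span, 0 in the shortest and 6 to 8 in the others. Across these classes, 25 of 44 collagen loci held more peaks than the median of their own class, against 46.2% of all protein-coding genes. For the 23 members in the longest class, of spans of at least 108875 bp, the count was 10, against 49.9% of all genes there. In the shorter classes it was 5 of 6 fibrillar and 10 of 15 other members, against 45.8% of all genes there. In the longest class 27 of 2178 protein-coding loci were empty and 2105 had at least 1 distal peak.

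**Figure D2:**
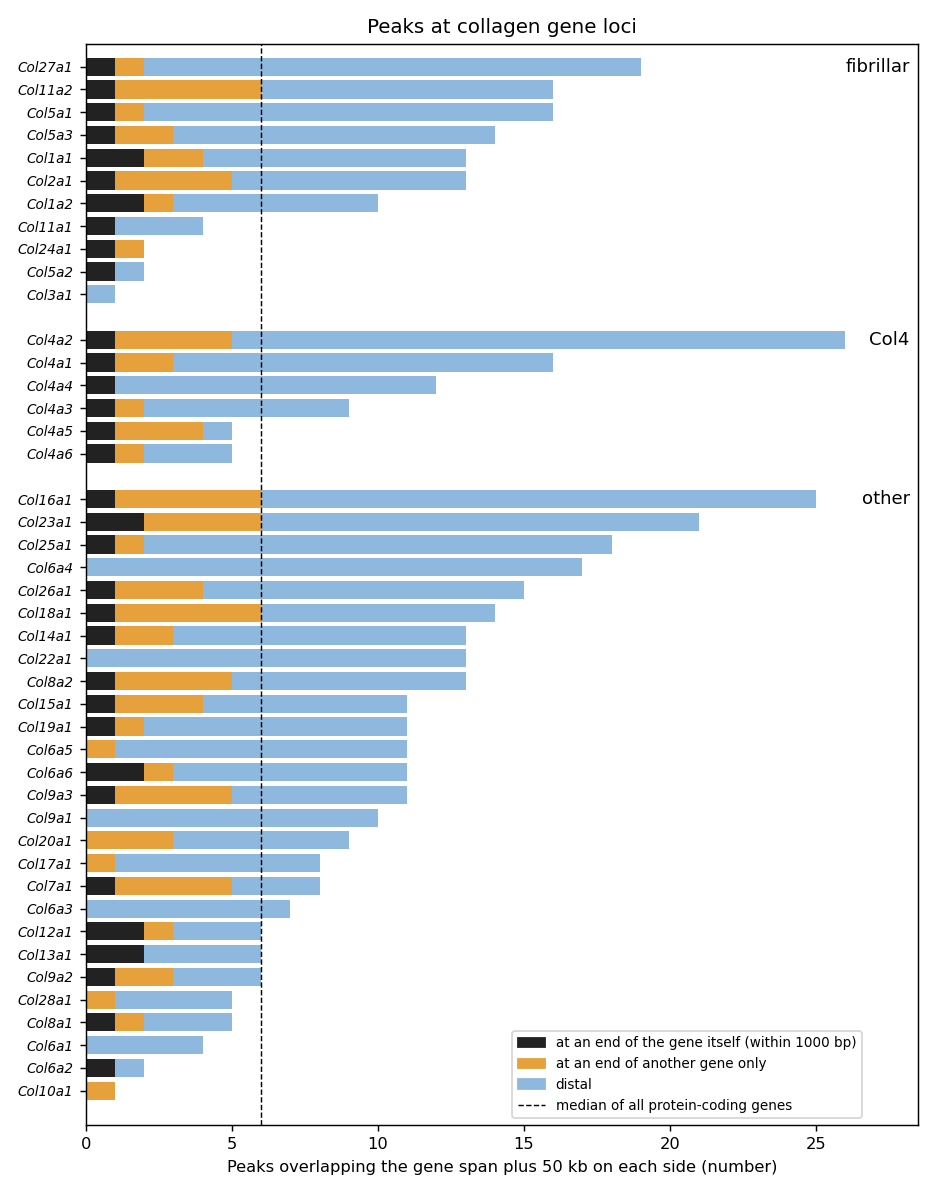
Number of peaks overlapping the gene span with 50 kb on each side for the 44 collagen genes, by class and split into peaks at an end of the gene itself, at an end of another gene only, and distal peaks. The dashed line is the median of all protein-coding genes, 6 peaks. Col4a2 has most peaks, 26, and Col3a1 and Col10a1 have 1 each.

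By class, fibrillar loci had a median of 13 peaks (1 to 19), Col4 loci 10.5 (5 to 26) and other loci 11 (1 to 25). This order depended on the flank and on how peaks were assigned, and Col4 was highest under both of the following. With 10 kb on each side the medians were 5 for fibrillar, 7.5 for Col4 and 5 for other loci, against 2 for all protein-coding loci. With each peak given only to the nearest protein-coding gene they were 4, 7 and 6, against 2. These medians are not matched for length. With 50 kb, 7 of 11 fibrillar, 2 of 6 Col4 and 16 of 27 other loci held more peaks than the median of their length class. Over all protein-coding genes the share was 46.2%, and in the longest class, which holds all 6 Col4 genes, 49.9%. Inside the gene spans lay 46 of 110 peaks at fibrillar loci (41.8%), 42 of 73 at Col4 loci (57.5%) and 130 of 281 at other loci (46.3%), against 33.8% for all protein-coding genes. Fibrillar genes also had the shortest median span, 45068 bp, against 137550 bp for Col4 and 106394 bp for other members. The median span over all protein-coding genes was 17219 bp. With a fixed flank a longer span takes up more of its locus, and the shares inside spans are not matched for length.

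**Figure D3:**
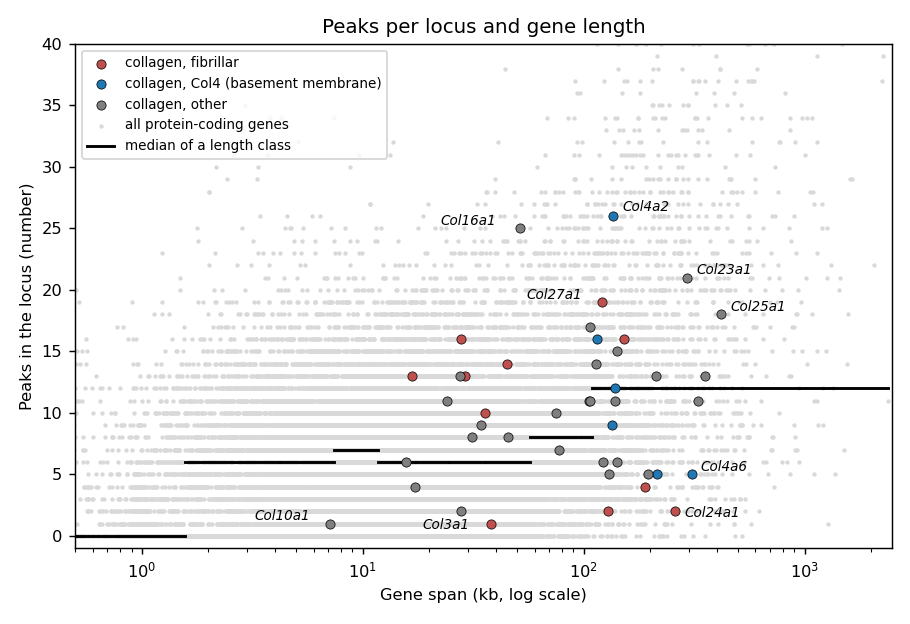
Peaks in the locus against gene span in kb on a log scale, for 44 collagen genes by class and all protein-coding genes in grey, of which 111 with more than 40 peaks lie above the axis. Black lines are the medians of 10 length classes. Col16a1 and Col4a2 lie far above the line of their class, and Col24a1 and Col4a6 lie below it.

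With 50 kb on each side, 7 fibrillar members had 10 or more peaks and 4 had 4 or fewer, a gap that smaller loci did not show. With 10 kb the counts ran between 1 and 13, and with peaks given to the nearest gene between 1 and 15, and in both only Col27a1 and Col5a1 reached 10. Col11a2 then had 5 peaks with 10 kb and 4 by nearest gene, and Col5a3 had 4 in both, level with Col11a1 at 4. Col27a1, a fibrillar chain of cartilage, had 19 peaks with 50 kb on each side, of which 13 lay in its span of 120983 bp on chromosome 4 (63214009 to 63334991). A peak of 3336 bp covered its start, and a second of 1788 bp lay 14415 bp downstream, a distance taken to the middle of the peak as throughout. Col5a1, a type V chain that starts fibrils, had 16 peaks with 11 inside the gene on chromosome 2 (27886381 to 28039510). Col11a2, a type XI chain, also had 16, but only 2 were inside its span, and 14 other annotated genes reached into its locus. Its start peak of 2333 bp on chromosome 17 (34038082 to 34040415) also met an end of its neighbour Rxrb. Upstream, a 9299 bp peak of the broadest kind spanned ends of Ring1, Rxrb and other genes. Col5a3, the third type V chain, had 14 peaks, of which 2 were inside the gene, and its start peak was 553 bp wide.

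Type I collagen genes were open at both ends. At Col1a1 on chromosome 11 (94936224 to 94953042), one end was covered by 2080 bp of peak (94936132 to 94938212) and a peak of 516 bp from 94952131 lay at the other. At Col1a2 on chromosome 6 (4505618 to 4541543), the start lay in its 1797 bp peak (4504686 to 4506483), and a peak of 485 bp lay at the far end. The Col1a1 locus held 13 peaks and the Col1a2 locus 10. Their chains combine in type I collagen, the main protein of skin and bone. A wide peak of 5804 bp in the Col1a1 locus belonged to an end of the neighbour Ppp1r9b.

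Col2a1, the type II chain of cartilage, lay under the widest gene-end peak of the family. The peak ran from 97999554 to 98005546 on chromosome 15, 5992 bp, and covered one end of the gene (97975602 to 98004724). A second peak of 4334 bp from 97989384 lay inside Col2a1 at an end of the annotated gene Gm46536. Peaks wider than 4479 bp form the broadest 1% of the list. Of 44 collagen genes 3 had one within 1000 bp of their span, against 3.95% of protein-coding genes and 7.02% of those in the longest class. The other two were Col12a1, a chain on fibril surfaces, with 4709 bp from 79716819 to 79721528 on chromosome 9, and Col23a1 with 4855 bp. Both belong to the longest class, whereas Col2a1 does not. The Col23a1 peak, from 51581640 to 51586495 on chromosome 11, lay 294147 bp from the start at the far end of the gene and also met an end of Phykpl.

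Col3a1 and Col5a2, neighbours on chromosome 1 separated by 24624 bp, had 3 peaks between them. Col3a1 encodes the type III chain of soft connective tissue, and its locus held 1 peak, of 490 bp, 2590 bp downstream of the closed start. Col5a2, a type V chain, had a peak of 1437 bp at one end (45501982 to 45503419) and 1 of 345 bp inside. No peak was shared between the loci. Col24a1 on chromosome 3 had 2 peaks in its locus, a start peak of 1584 bp and a peak of 1183 bp at an end of Znhit6. The remaining 258.3 kb of its span, 99.5%, held no peak. Col11a1, the second type XI chain, had 4 peaks, all inside a span of 190278 bp, and its start peak was 2930 bp wide.

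The 6 Col4 genes lie in 3 pairs, and type IV collagen genes are known to be read away from each other out of a common start region. In the first pair the annotated starts of Col4a1 and Col4a2, the chains of nearly all basement membranes, lie 21 bp apart on chromosome 8. Both lay under a single 2943 bp peak (11311593 to 11314536). The annotated genes overlap there, so the bases just upstream of the Col4a2 start lie within Col4a1. To show the CCAAT letters under this peak, 30 bases are printed in the direction of Col4a2, with those letters in capitals. They end 14 bases short of the Col4a2 start.
Col4a1 and Col4a2 (chr8:11312761-11312790, + strand): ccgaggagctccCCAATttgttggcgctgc

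Col4a2 had the most peaks of any collagen gene, 26, with 16 inside its span of 136483 bp (11312805 to 11449287), and Col4a1 had 16, with 9 inside its 114467 bp (11198423 to 11312889). The pair shared 7 peaks and held 35 between them. Peaks inside the spans amounted to 11.7 per 100 kb at Col4a2 and 7.86 at Col4a1, against a median of 5.10 over all protein-coding genes and 3.76 over those of the longest class, to which both belong.

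The second pair, Col4a4 and Col4a3 on chromosome 1, encodes chains of the kidney and inner ear basement membranes. Both ends met under 1 peak of 877 bp, from 82586597 to 82587474. Col4a4 had 12 peaks and Col4a3 had 9, of which 5 were shared. The widest peak of this pair was not at the shared end but 111073 bp downstream of the start inside Col4a4, 2821 bp from 82474366 to 82477187.

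In the third pair, on the X chromosome, the starts of Col4a6 and Col4a5 lie 1343 bp apart and had separate peaks. The Col4a6 start had a 450 bp peak (141473645 to 141474095) and the Col4a5 start an 823 bp peak (141475158 to 141475981), with 1063 bp between the peaks. Each locus held 5 peaks, the fewest among Col4 genes. The longest stretch without a peak took up 213.3 kb of the Col4a5 span (99.7%) and 260.4 kb of the Col4a6 span (84.4%). X-linked protein-coding loci had a median of 2 peaks, so these values must be read beside that of their chromosome. Without the X-linked pair the Col4 median was 14.

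**Figure D4:**
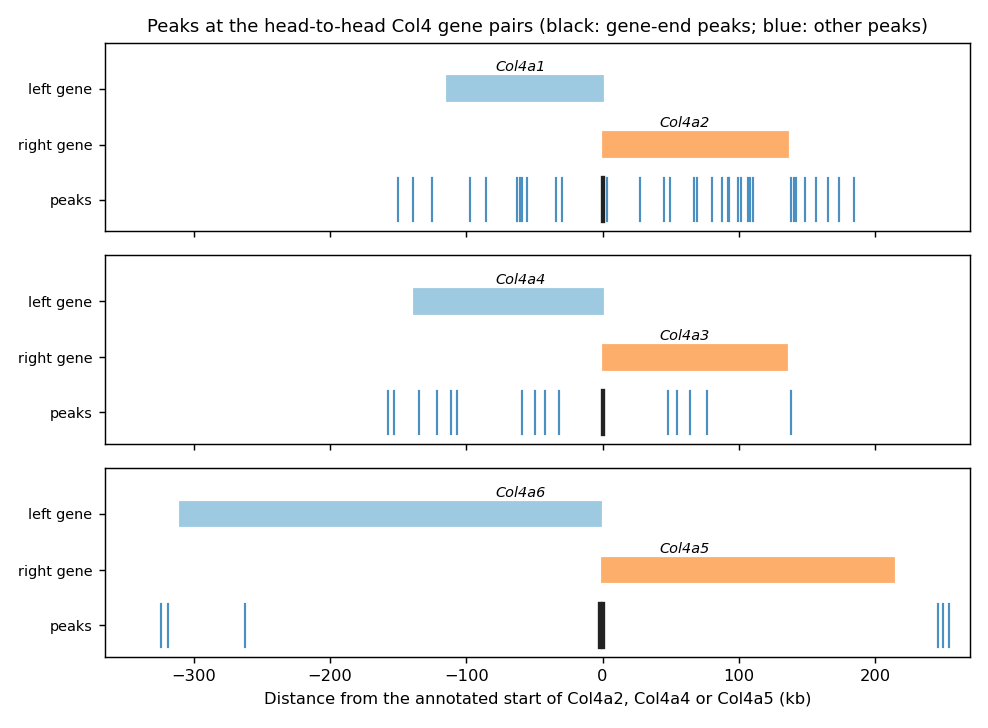
Peaks of the head-to-head Col4 pairs by distance in kb from the annotated start of Col4a2, Col4a4 or Col4a5. Boxes are gene spans drawn to scale, and each line marks the centre of a peak, black for peaks at an end of either gene and blue for others. The Col4a1 and Col4a2 pair holds 35 peaks, the Col4a4 and Col4a3 pair 16 and the Col4a6 and Col4a5 pair 8.

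Among the other members, Col16a1, a minor chain attached to fibrils, had the densest locus. It held 25 peaks in and around a span of 51461 bp on chromosome 4 (130047817 to 130099277), with 11 inside, or 21.4 per 100 kb, and the median of its length class was 6. Col23a1 had 21 peaks in its locus, of which 12 lay inside the gene of 294247 bp. Col25a1 had 18 in the locus around its gene of 419527 bp, and both are transmembrane collagens. At Col25a1, 14 peaks lay inside the gene, a density of 3.34 per 100 kb, and a start peak of 1915 bp ran from 130179996 to 130181911 on chromosome 3. All 4 transmembrane members had between 6 and 21 peaks, with Col13a1 at 6 and Col17a1, a hemidesmosome protein of skin, at 8. Col17a1 was the transmembrane member without a gene-end peak.

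Type VI genes had few peaks within 1000 bp of their own ends. Col6a1 on chromosome 10 had no peak inside its span (76708792 to 76726044), while 4 peaks of 363 to 1076 bp stood 2481 to 9179 bp upstream of its closed start. Col6a2, its partner in the type VI trimer, had 2 peaks, with one of 759 bp over both annotated starts. Col6a3, the third chain, had 7 peaks, all distal. Col6a4, Col6a5 and Col6a6 lie in a row on chromosome 9 and had 17, 11 and 11 peaks. Of the 17 at Col6a4 only 3 were inside the gene, and all were distal. The start peak of Col6a6 was 306 bp wide, the narrowest at any collagen start.

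The fibril-associated (FACIT) members ranged between 6 and 25 peaks, with 6 of 9 having a gene-end peak. Col19a1, made by a subset of brain neurons, had 11 peaks with a start peak of 1567 bp, and the longest stretch of its span without a peak was 207.5 kb. It shared 5 peaks with its neighbour Col9a1, which had 10. Col22a1, a collagen of muscle and tendon junctions, had 13 peaks, all distal and none at either end. Col14a1 also had 13, of which 2 were inside a span of 213160 bp. Col9a2, Col9a3, Col12a1 and Col20a1 had between 6 and 11.

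The network-forming members had between 1 and 13 peaks. Col8a2, a chain of the corneal endothelial membrane, had 13 peaks, Col8a1 had 5, and Col10a1, the marker of hypertrophic cartilage, had 1. That peak, of 1122 bp, lay 28552 bp from the Col10a1 start at an end of Nt5dc1, so no peak was assigned to Col10a1 when each peak went to its nearest gene. The multiplexins Col15a1 and Col18a1 had 11 and 14 peaks. Col7a1, the anchoring fibril chain of skin, had 8, with 1 of 454 bp over its start and no other inside the gene. Col26a1 had 15, and Col28a1 had 5 with none at its ends.

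Distal peaks inside genes were placed along the direction of reading. For the 35 members with a known direction, 143 distal peaks lay inside the span, 42 in the first of 3 equal parts, 45 in the middle and 56 in the last (39.2%). Over 17492 protein-coding genes the share in the last part was 33.9%, and over those of the longest class 35.9%. In 14 of 44 members a single peak-free stretch took up more than 80% of the span, against 54.8% of all protein-coding genes, most of which are shorter. Among the 23 members of the longest class it did so in 6, against 11.2% of protein-coding genes of that class.

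Genes that process, bind or accompany collagens were set beside the 67.3% of all protein-coding genes with a gene-end peak. Among 32 genes of collagen folding, cross-linking and trimming, 31 had a gene-end peak (96.9%), and Loxl2, a lysyl oxidase, was the exception. The loci richest in peaks were those of Bmp1, the procollagen C-proteinase, with 19, Loxl1 with 18 and the glycosyltransferase gene Colgalt2 with 17. Among 9 receptors 7 had a gene-end peak (77.8%), a share near that of all genes, with 12 peaks each at Ddr1, Itga10 and Itga11, and none at the ends of Gp6 and Lair1, the receptors of platelets and leukocytes. A peak of 9278 bp reached Ddr1, a collagen-binding kinase. Among 16 laminin, nidogen and other basement membrane genes 14 had a gene-end peak (87.5%), and Lamb3 and Nid1 did not. Lamc3, a laminin chain gene, had 17 peaks and Hspg2, which encodes perlecan, had 16.

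Markers of the tissue and of known collagen makers were looked up in the same way. All 9 striatal genes had a gene-end peak, with 3 to 60 peaks per locus and a median of 12. Meis2 had 34, Dlx1 had 12 and Dlx2 had 11, while Gad1 had 3 and Dlx5 had 5, under the median of 6 over all protein-coding genes. The widest peak was 11978 bp at Gad1 and 25330 bp at Dlx5. A peak of the broadest 1% lay within 1000 bp of the span at 8 of 9 striatal genes, against 3.95% of protein-coding genes. The neighbours Dlx1 and Dlx2 both had a widest peak of 25417 bp, so they do not count as separate cases. A peak of the broadest 1% lay there at 1 of 8 fibroblast and meningeal markers and 0 of 8 endothelial and mural markers. Of the 8 fibroblast and meningeal markers 7 had a gene-end peak, with 0 to 18 peaks per locus and a median of 5. Lum, a fibroblast proteoglycan gene, had none in its locus. Of 8 endothelial and mural markers 6 had one, with 2 to 24 peaks and a median of 13. Pecam1 and Tek lacked it. Their part in the peaks at collagen loci was not tested.

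**Figure D5:**
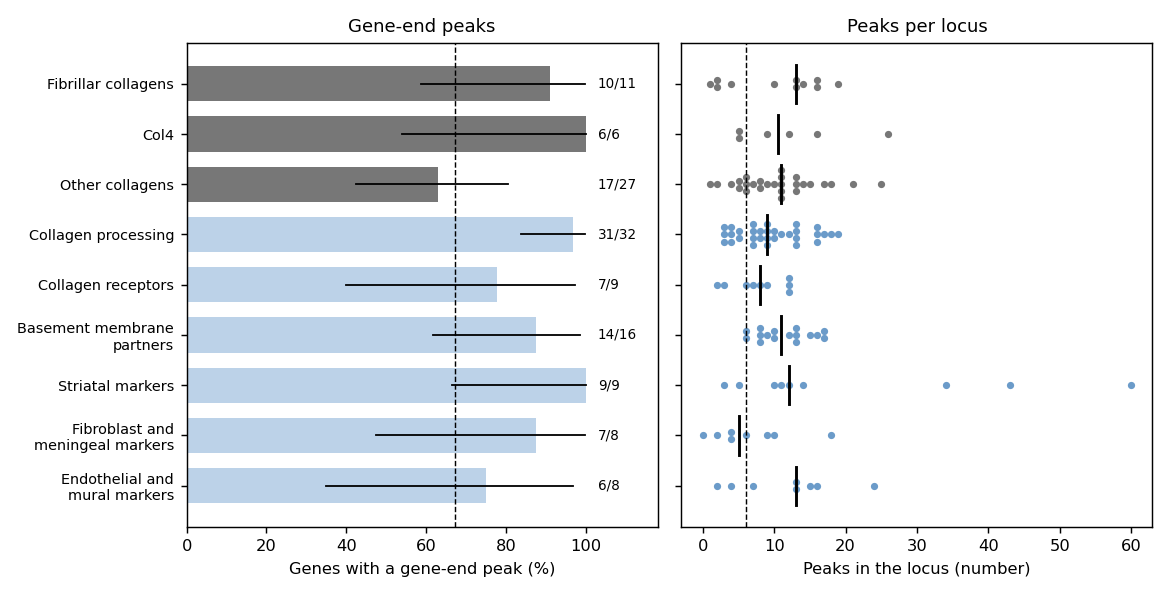
Left, the percentage of each collagen class and gene list with a peak at a gene end, with counts and exact 95% binomial intervals that cover counting of genes only. Right, peaks in the locus of each gene as points with the median as a bar. Dashed lines are the values of all protein-coding genes, 67.3% and 6 peaks.

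The 464 gene and peak pairs described above came from 437 distinct peaks, since 15 members have a collagen neighbour whose locus overlaps theirs. Of the pairs, 349 were distal (75.2%), 39 lay at an end of the collagen gene itself and 76 only at an end of another gene. Median widths were 499 bp for distal peaks, 1567 bp for a collagen gene's own ends and 1121 bp for ends of other genes.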

How the data were processed

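Per the submitters' processing notes, the authors used genome build mm10, Cell Ranger ATAC 1.2.0 and Signac, named without role or order. The peak caller, any pooling of the 2 libraries and any removal of doublets are not given in the sources used here. The deposited list gives peak positions only, with no other value, and whether starts count from 0 or 1 is not stated. Positions are printed as deposited.

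Gene spans came from RefSeq GRCm38.p6. Of 49997 entries, 402 on scaffolds, off the main chromosomes or with repeated symbols were left out. The table gives spans without exons, so exonic and intronic positions are not told apart. Peaks overlapping by at least 1 bp were counted in Python 3.11.15 with NumPy 2.4.6, pandas 2.3.3, SciPy 1.17.1 and matplotlib 3.10.9. Strand and starts came from the RefSeq promoter table. The counting was tested on simulated data.

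Named in full were the 3 members with most peaks per class, every collagen neighbour and members under a broad peak, and other genes named were picked after their values were seen. One gene that the rule would name is not reported here. Members, classes, lists and rule were chosen with earlier results of these data known. No p-value was computed, since genes of 1 peak list are not replicates. Alternatives varied the flank, the gene-end window, the overlap, the peak width and the assignment of peaks.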

Additional observations from a re-analysis of the deposited data

How the results depend on the processing

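Of 70 recomputed summary values, 55 stayed within 1.5 times the value reported. With a flank of 10 kb the median was 5 peaks at fibrillar and 5 at other loci, with 3.5 distal peaks per collagen locus and 1 empty locus, Col10a1. With a flank of 100 kb the Col4 median was 17.5. With peaks wider than the median only, the medians were 4 for fibrillar, 5.5 for Col4 and 5 for other loci, with 3 distal peaks and 1 empty locus, Col3a1. With peaks given to the nearest gene only, they were 4 for fibrillar and 6 for other loci, with 4 distal peaks and 1 empty locus, Col10a1. Over all protein-coding loci the medians were 2, 11, 3 and 2 peaks in these settings, in the order given. Empty were 20.8% of all protein-coding loci with 10 kb, 17.9% with wider peaks only and 22.2% by nearest gene. A peak had its midpoint in the 300 bases at 8 of 38 starts, and the cause was not tested. Peaks that overlapped those bases had a median width of 1567 bp. The settings of flank, width and assignment count more or fewer peaks by construction. Collagen genes with a gene-end peak numbered 29 to 37 of 44 under every setting, against 61.1% to 71.4% of all protein-coding genes. Choices made after seeing the data were those for starts and length classes, the Col4 genes without the X-linked pair and starts counted from 0. The list holds no library, so no library could be left out. No paired analysis was possible because there is 1 group and the peak list carries no replicate.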
